A study of Mus musculus with 17 samples.

Results

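The genes examined here were 37 genes of fat cells and of lipid synthesis, measured in microdissected mouse mammary tumors. A gene was included when the gene name or RefSeq accession of an array probe matched a list of 9 adipocyte genes, 4 genes of fatty acid uptake, transport and lipolysis, 9 of fatty acid synthesis, 3 regulators, 5 of glycerolipid synthesis and 7 of sterol synthesis. All 37 were on the array, among 28786 genes tested, and 69 probes carried them. The brightest probe represented a gene, and 22 of the 37 genes had more than 1 probe.

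The tumors came from FVB mice that carried the p75-CUX1 or the p110-CUX1 transgene, short isoforms of the transcription factor CUX1 driven by the mouse mammary tumor virus promoter, which is active in mammary epithelium. No non-transgenic gland was part of the comparisons, so each tumor was read against the same pooled universal mouse reference RNA and against the other tumors. The p75-CUX1 tumors were 4 adenosquamous carcinomas (p75-47, p75-80, p75-94 and p75-101), 3 solid carcinomas (p75-129, p75-150 and p75-534), 1 adenomyoepithelioma (p75-90) and 1 adenocarcinoma (p75-216). The p110-CUX1 tumors were 6 solid carcinomas (p110-121, p110-143, p110-225, p110-314, p110-360 and p110-416), 1 adenoma (p110-98) and 1 adenomyoepithelioma (p110-374). Each tumor was named for its own mouse, so every tumor counted as 1 sample, and its dye-swapped arrays were averaged first. Animal ages were not given in the sources used here.

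Fat cells take up fatty acids that lipoprotein lipase frees in the capillaries, store them as triglyceride in droplets coated by perilipins and CIDE proteins, and secrete hormones such as adiponectin, resistin and leptin. Secretory mammary epithelium shares a large part of this machinery, since milk fat is built from fatty acids that are taken up or made anew by fatty acid synthase and is packed into droplets. Enzymes of fatty acid synthesis are under the control of SREBP-1 and those of cholesterol synthesis under that of SREBP-2. For this reason the genes were read beside markers that fat cells have and secretory epithelium largely lacks, and beside milk genes.

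Values were log2 ratios of tumor over reference, so 0 is the level of the reference and 1 is a doubling. A gene was called measured in a tumor when its spot was well above the local background in the tumor color on every array of that tumor. The arrays were not equally bright. The share of probes measured in the tumor color ran from 21.5% in p110-374 to 65.6% in p75-129, and the reference outshone the tumor most in p110-98 (11.5-fold at the 95th percentile of the signals), p110-374 (11.1-fold) and p110-225 (8.23-fold), against at most 3.95-fold in the others. Of the 37 genes, between 14 (p110-374) and 35 (p75-129) were measured per tumor. All p75 tumors were scanned in one year and all p110 tumors in another, so scan year and transgene cannot be told apart.

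The tumor p110-121 went against its label of epithelial cells from a solid carcinoma. Its Krt8 and Krt18 log2 ratios were -4.32 and -4.91, and Krt5, Krt14, Krt19, Epcam and Cdh1 were not well above background. Of the 7 epithelial markers 2 were measured, and their summed tumor signal was 3210. All 5 macrophage markers were at least doubled over the reference in it, with log2 ratios of 7.17 for Lyz2 and 5.23 for Csf1r. The histology list in the study's text does not name this tumor, and its group here is that of the sample labels. Differences and relations that moved clearly without this tumor are given both ways below.

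Spread between tumors was wide for the 37 genes. The median SD of a gene over the 17 tumors was 1.08 on the log2 scale for them and 0.30 for all genes, and 20 of the 37 were among the tenth of all genes that varied most (SD of 0.97 or more). By role, the median SD was 2.65 for the uptake and lipolysis genes, 2.23 for the adipocyte genes, 1.13 for fatty acid synthesis, 0.90 for the regulators, 0.74 for glycerolipid synthesis and 0.63 for sterol synthesis. Cfd had an SD of 3.84, which 0.0139% of all genes matched or exceeded, and Lep had the smallest, 0.05, at background in all tumors. The all-gene values include genes at background, where ratios such as those of Lep vary little. The spread was not compared with that of measured genes alone.

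**Figure D1:**
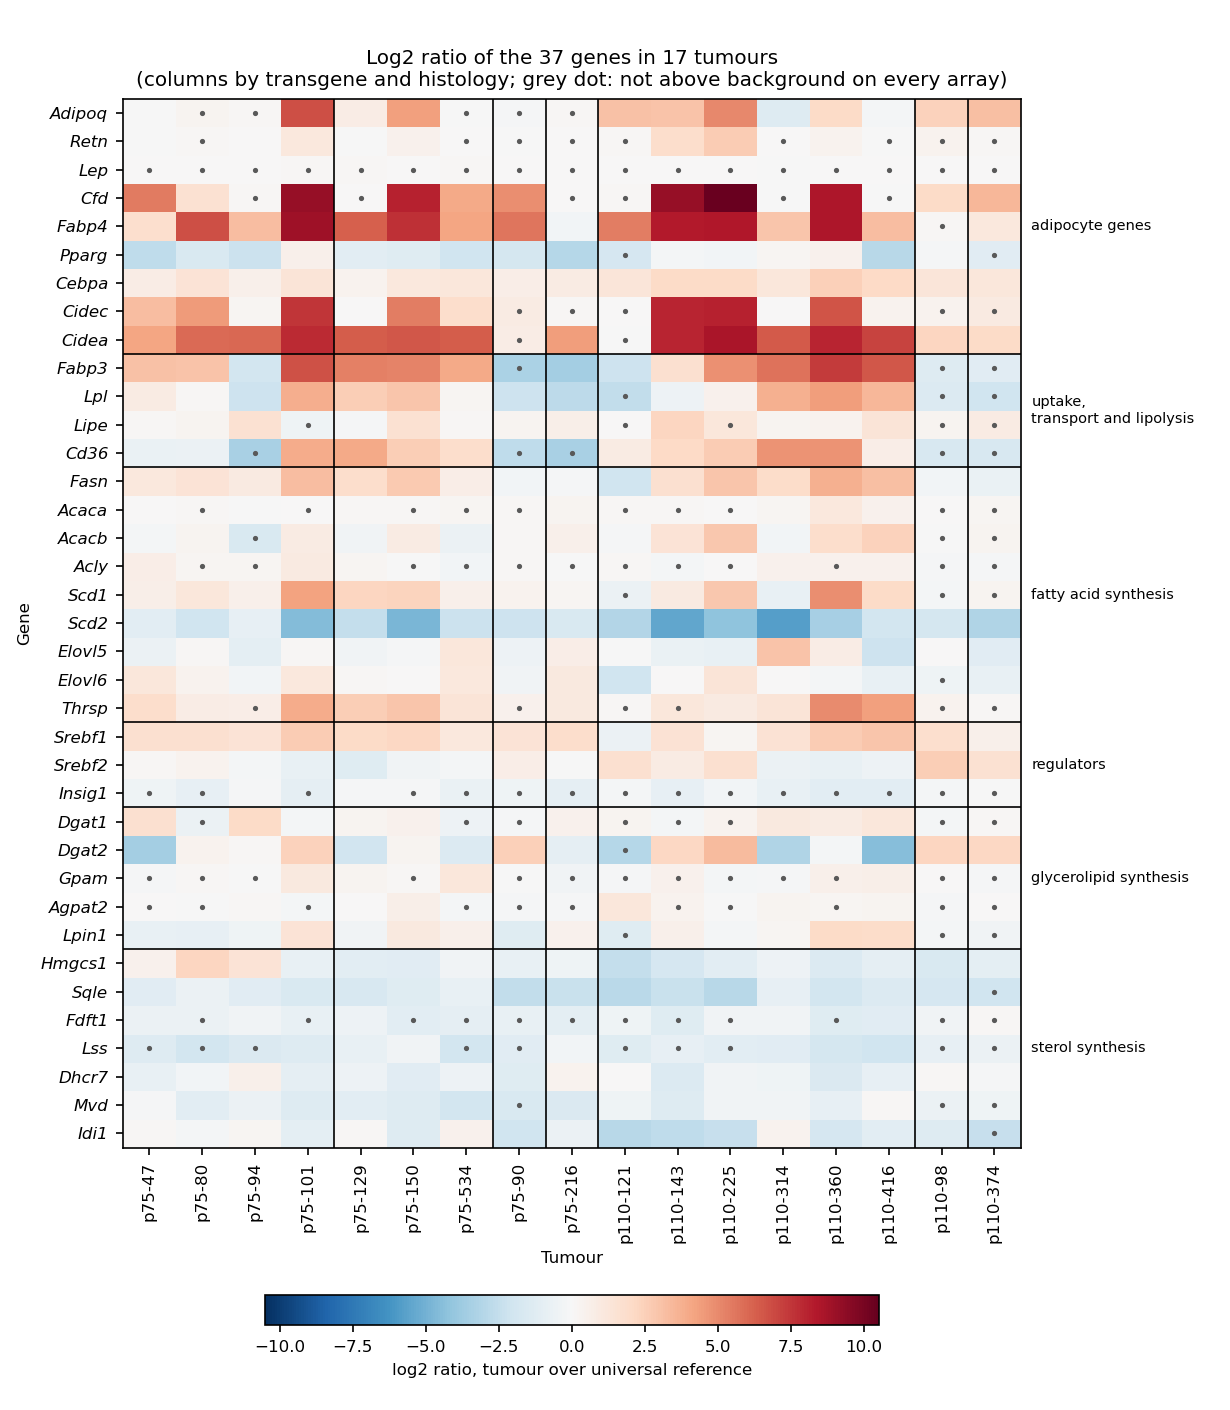
Log2 ratio of tumor over reference (color scale) for the 37 genes (vertical axis, grouped by role) in the 17 tumors (horizontal axis, grouped by transgene and histology), with a gray dot where a gene was not above background on every array. Cfd and Cidec were high in the same 5 tumors, Cidea in most tumors, and Scd2 was below the reference in all 17.

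Cfd encodes adipsin, a serine protease secreted by fat cells, and its probe lies on chromosome 10, from 79672573 to 79672632, in the mm7 coordinates of the array files. It was measured in 11 of 17 tumors. In the p75 adenosquamous carcinomas its log2 ratio was 5.44 in p75-47, 1.59 in p75-80, 0.14 in p75-94 and 9.13 in p75-101. In the p75 solid carcinomas it was 0.00 in p75-129, 8.04 in p75-150 and 3.94 in p75-534. Each of these groups thus held a tumor at background and a tumor near the top. In the p110 solid carcinomas it was 9.17 in p110-143, 10.35 in p110-225 and 8.50 in p110-360, and between -0.06 and 0.16, at background, in p110-121, p110-314 and p110-416. The 6 p110 solid carcinomas fell into a high and a background set with no tumor between. Among the single tumors, p75-90 had 4.87, p110-374 had 3.51, p110-98 had 1.99 and p75-216 had 0.06.

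Cidec, whose product coats and enlarges lipid droplets of white fat cells, had its probe on chromosome 6, from 113585627 to 113585686 (mm7). Its log2 ratio was 8.05 in p110-225, 7.97 in p110-143, 7.48 in p75-101, 6.58 in p110-360 and 5.35 in p75-150. It was 4.46 in p75-80, 3.20 in p75-47 and 1.85 in p75-534, and at most 0.91 in the other 9. The 5 highest tumors were the same 5 as for Cfd, while p75-80 had more Cidec than its Cfd rank would place it.

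Retn, which encodes resistin, was low throughout and had its 5 highest log2 ratios in the same tumors: 2.63 in p110-225, 1.87 in p110-143, 1.09 in p75-101, 0.46 in p75-150 and 0.40 in p110-360. Leptin (Lep) was measured in none of the 17 tumors, with log2 ratios between -0.07 and 0.14. Of 2 further fat cell markers outside the 37 genes, the droplet coat gene Plin1 was 4.12 in p75-101 and 1.80 in p75-150, and it was 4.26 in p110-143, 3.59 in p110-225 and 2.04 in p110-360. Plin1 was 1.42 in p110-374 and at most 0.62 in the others, so it too was highest in those 5 tumors. Plin4 was 4.42, 3.10, 4.29, 2.07 and 1.64 in p110-143, p75-101, p110-225, p110-360 and p75-150, 1.96 in p110-374, and below 0 in 10 of the other 11, the exception being 1.08 in p75-90.

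Counted over the 7 adipocyte-defining genes (Adipoq, Retn, Lep, Cfd, Cidec, Plin1 and Plin4), 6 were at least doubled over the reference in p75-101, p110-143 and p110-225, and 5 in p75-150 and p110-360. The count was 4 in p110-374, 2 in p75-47, p75-80, p75-90, p75-534 and p110-98, and 1 in p110-121. It was 0 in p75-94, p75-129, p75-216, p110-314 and p110-416. The summed tumor signal of the 7 genes ran from 1340 to 198000 in the p75 adenosquamous carcinomas, from 1650 to 45600 in the p75 solid carcinomas and from 1300 to 353000 in the p110 solid carcinomas. The ranges of the 3 groups overlapped, and that of the p75 solid carcinomas lay within the other 2. Of the 6 fibroblast markers, Lum was highest in p110-225 (5.14), p110-360 (5.14), p75-101 (4.48) and p75-150 (4.27), 4 of the 5 tumors with the most Cfd, and was 2.04 in p110-143. Pdgfra was below the reference in all 17 tumors, least so in p75-101 (-1.0), p110-225 (-1.04) and p75-150 (-1.11). The collagens Col1a1, Col1a2 and Col3a1 were below the reference in those 5 tumors. Dcn was above the reference in the 5, from 0.48 (p110-143) to 2.73 (p110-225), and highest in p75-90 (2.83). The summed fibroblast signal of the 5 ran from 20300 (p110-143) to 138000 (p110-225), against 5760 to 156000 over all tumors. Their part in the adipocyte gene values was not tested. In RNA from many cells, fewer cells of a type and less RNA per cell cannot be told apart.

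Adiponectin (Adipoq), a hormone of fat cells, was highest in p75-101 among the p75 tumors and in p110-225 among the p110 tumors, as Cfd was, but it was also above the reference in p110-121, where Cfd was at background. Its 60-base probe on chromosome 16 is the only probe of the gene, and its sequence is shown because the result below turns on what this probe reads:
Adipoq probe, mm7 chr16:22816125-22816184: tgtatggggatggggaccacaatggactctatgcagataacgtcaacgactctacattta
In the p75 tumors Adipoq was measured in 4 of 9, with a log2 ratio of 6.76 in p75-101, 4.29 in p75-150, 0.82 in p75-129 and -0.03 in p75-47, and it was between -0.12 and 0.32 in the 5 where it was not measured. In the p110 tumors it was measured in all 8, with a lowest log2 ratio of -1.37 (p110-314), a median of 2.67 and a highest of 5.07 (p110-225).

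The reference color, which held the same pooled RNA on every array, was not level for this probe. Its log2 signal was 6.60 ± 0.26 (SD, n = 9) on the p75 arrays and 9.23 ± 1.07 (SD, n = 8) on the p110 arrays, a shift of 2.63. A shift that large was seen in 0.743% of all genes, and a shift over 1 in 3.69%. Adipoq was the only 1 of the 37 genes with a shift over 1, and the next was Srebf1 at 0.95. The log2 tumor signal of Adipoq, normalized together with the reference color, was 13.34 in p110-121, against 12.16 in p110-225 and 13.36 in p75-101. In p110-121 Adipoq was measured, while Cfd, Cidec, Retn and Plin1 were not above background. The part of the reference shift in the Adipoq ratios was not tested.

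**Figure D2:**
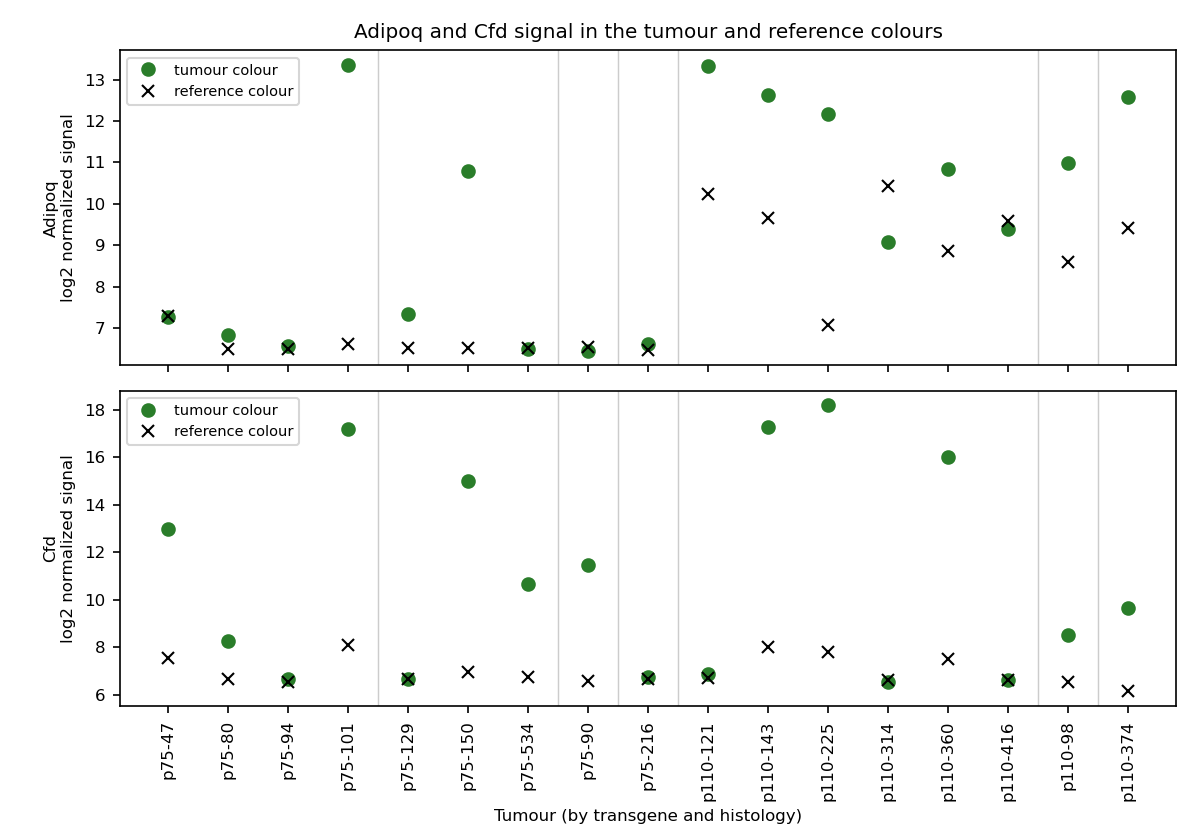
Log2 normalized signal (vertical axes) of Adipoq (top) and Cfd (bottom) in each tumor (horizontal axis), with green points for the tumor color and crosses for the reference color. The Adipoq crosses lay at 6.60 on average on the p75 arrays and at 9.23 on the p110 arrays, while those of Cfd stayed between 6.15 and 8.08.

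Fabp4, a fatty acid carrier of fat cells that capillary endothelium and macrophages also make, was measured in 16 of 17 tumors and was at least doubled in 15. Its log2 ratio was 8.87 in p75-101, 8.50 in p110-360, 8.39 in p110-225, 8.36 in p110-143 and 7.68 in p75-150. It also reached 6.76 in p75-80, 6.27 in p75-129 and 5.40 in p110-121, where Cfd was low or at background, and it was lowest in p75-216 (-0.27). The same 5 tumors were on top, but Fabp4 was also far above the reference in tumors where Cfd was not. Of the 5 endothelial markers, Emcn was measured in 16 tumors, Kdr in 14, Cdh5 in 11, Tek in 6 and Pecam1 in 0. Emcn, an endothelial surface sialomucin, had its highest log2 ratios in p110-360 (5.84) and p75-80 (5.02), and it was 3.10 in p110-121 and 1.65 in p75-129. It was also 3.73 in p75-216, where Fabp4 was lowest. In p110-314 and p110-416 it was 4.68 and 4.13, with Fabp4 at 2.95 and 3.21. Cdh5 was not measured in p110-121 (0.31). Of the macrophage markers, Csf1r and Lyz2 were 5.23 and 7.17 in p110-121, 0.44 and 2.5 in p75-80, and -0.77 and 1.94 in p75-129. The summed endothelial signal ran from 874 to 5280 in the p75 adenosquamous, from 1390 to 3150 in the p75 solid and from 2140 to 6610 in the p110 solid carcinomas. The part of endothelium and macrophages in the Fabp4 values was not tested.

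Cidea, a droplet protein of brown fat that lactating mammary epithelium also uses to secrete milk fat, was measured in 15 tumors and at least doubled in those 15. It was highest in p110-225 (8.55). Of the tumors with Cfd at background, p110-416 had 7.11, p110-314 had 6.40 and p75-129 had 6.33. It was lowest in p110-121 (-0.01) and p75-90 (0.78), both not measured. Cidea was therefore high with and without the fat cell genes.

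Pparg, the nuclear receptor that directs fat cell differentiation, was below the reference in most tumors, with a lowest log2 ratio of -3.03 (p75-216), a median of -1.29 and a highest of 0.50 (p75-101). It was within 0.50 of the reference in p75-101, p110-143, p110-225, p110-314, p110-360 and p110-98. Cebpa, a transcription factor of fat cells and of epithelia, was measured in all 17 tumors, from 0.33 in p75-129 to 2.52 in p110-360. A second, dim probe of Cebpa ran against the first over the tumors (r = -0.31).

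Fabp3, a fatty acid carrier of heart muscle and of lactating mammary epithelium, spread as widely as Cfd but in another order. Its log2 ratio was highest in p110-360 (7.35), p75-101 (6.68) and p110-416 (6.51), was 5.72 in p110-314 and 5.28 in p75-129, and was only 1.66 in p110-143. It was lowest in p75-216 (-3.54), and was -3.32 in p75-90, -2.21 in p110-121 and -1.92 in p75-94. The tumors p110-416, p110-314 and p75-129 were near the top for Fabp3 and at background for Cfd.

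Lpl, the lipase that frees fatty acids from lipoproteins, gave nearly the same order. It was 4.42 in p110-360, 3.81 in p75-101, 3.73 in p110-314 and 3.49 in p110-416. It was -0.54 in p110-143 and 0.44 in p110-225, the tumors with the most Cfd, and -2.74 in p75-216. Cd36, a fatty acid receptor also made by endothelium and macrophages, was 4.73 in p110-360, 4.70 in p110-314, 3.99 in p75-129 and 3.89 in p75-101, and lowest in p75-94 (-3.44). Lipe, the hormone-sensitive lipase of fat cells, varied less, from -0.44 in p75-101 to 2.22 in p110-143.

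Fasn, the enzyme complex that builds palmitate from acetyl and malonyl units, was measured in all 17 tumors by a probe on chromosome 11, from 120916191 to 120916250 (mm7). A second probe followed it closely (r = 0.94). Its log2 ratio was 1.10 in p75-47, 1.47 in p75-80, 0.98 in p75-94 and 3.28 in p75-101 among the adenosquamous carcinomas. In the p75 solid carcinomas it was 1.88 in p75-129, 2.77 in p75-150 and 0.68 in p75-534. In the p110 solid carcinomas it was -2.10 in p110-121 and between 1.69 (p110-143) and 3.77 (p110-360) in the other 5. It was below the reference in p75-216 (-0.14), p110-98 (-0.26), p75-90 (-0.32) and p110-374 (-0.69). The 3 larger groups overlapped, with every tumor but p110-121 above the reference, and the 4 tumors of other histology were below it.

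Thrsp, a nuclear protein that promotes lipogenesis in liver, fat and the lactating gland, was highest in p110-360 (4.95), p110-416 (4.29), p75-101 (3.92), p75-150 (2.88) and p75-129 (2.58). It was not measured in p110-121, p110-98, p110-374, p75-90, p75-94 and p110-143. Scd1, the desaturase that makes oleate, was highest in p110-360 (4.85) and p75-101 (4.25), followed by p110-225 (2.79), p75-150 (2.30), p75-129 (2.25) and p110-416 (1.98). The isoform Scd2 lay below the reference in all 17 tumors, from -5.80 in p110-314 to -0.84 in p75-94, and by at least 1 in 16 of them. Scd1 and Scd2 thus took opposite sides of the reference in most tumors.

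Of the other genes of this route, Acacb, an acetyl-CoA carboxylase of the mitochondrial surface, was highest in p110-225 (2.81), p110-416 (2.41), p110-360 (1.86) and p110-143 (1.47). Acaca, the cytosolic carboxylase, was measured in 7 tumors and stood out only in p110-360 (1.11). Another Acaca probe, measured in 11 tumors, did not follow the brightest (r = -0.14). A dim second probe of Acacb, measured in 1 tumor, ran against the first (r = -0.63). Acly, which supplies cytosolic acetyl-CoA, was measured in 5 and ran from -0.26 to 0.98 (p75-101). The elongases had no common order: Elovl5 ran from -2.17 in p110-416 to 3.01 in p110-314, and Elovl6 from -2.06 in p110-121 to 1.33 in p110-225.

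Promoter sequences of Fasn and Thrsp are shown because these genes moved together over the tumors, and that of Hmgcs1, whose product makes the HMG-CoA of the mevalonate route, because Hmgcs1 and Idi1 varied most among the sterol genes. Each line holds the 250 bases before the annotated start, 5′ to 3′ on the strand of the gene, from RefSeq on GRCm38.p6. Capitals mark the CCAAT box (CCAAT, or ATTGG for the other strand) in Fasn and Thrsp, where neighboring matches overlap in Fasn, and the sterol response element (TCACNCCAC, or GTGGNGTGA) in Hmgcs1.
Fasn, chr11:120824548-120824797, minus strand: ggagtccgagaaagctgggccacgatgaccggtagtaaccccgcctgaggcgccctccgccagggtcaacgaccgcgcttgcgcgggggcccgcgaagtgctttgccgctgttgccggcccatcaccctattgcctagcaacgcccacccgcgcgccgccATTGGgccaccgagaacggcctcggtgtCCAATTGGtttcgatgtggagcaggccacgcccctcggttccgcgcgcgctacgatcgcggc
Thrsp, chr7:97417551-97417800, minus strand: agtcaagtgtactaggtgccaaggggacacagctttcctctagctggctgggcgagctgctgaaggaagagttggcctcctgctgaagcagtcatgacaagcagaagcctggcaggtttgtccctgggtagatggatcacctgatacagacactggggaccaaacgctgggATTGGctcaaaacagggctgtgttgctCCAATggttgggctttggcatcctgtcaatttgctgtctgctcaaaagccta
Hmgcs1, chr13:119690101-119690350, plus strand: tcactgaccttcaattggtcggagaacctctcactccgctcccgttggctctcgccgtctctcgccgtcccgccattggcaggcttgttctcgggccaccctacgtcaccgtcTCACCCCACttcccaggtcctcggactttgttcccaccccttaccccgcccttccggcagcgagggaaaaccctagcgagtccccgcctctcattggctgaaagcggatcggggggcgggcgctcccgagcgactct
The CCAAT matches began 90, 62 and 59 bases before the start in Fasn and 79 and 52 bases before it in Thrsp. The Hmgcs1 window also held CCAAT matches, left unmarked, that began 237, 176 and 45 bases before the start. Over all 32536 promoters of the table, 33.8% held a CCAAT box on either strand and 1.04% the sterol response element. The table held 37 promoters for 28 of the genes. Of these promoters 18 held a CCAAT box and 1, that of Hmgcs1, the sterol response element, 137 bases before the start. The E-box CACGTG was in 4 of these promoters and in 6.04% of all promoters. Such matches describe the letters of these windows only.

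Milk genes were read beside Fasn. Csn2, which encodes beta-casein, had a log2 ratio between 7.77 and 10.69 in 11 tumors and between -0.11 and 3.78 in the other 6 (p75-90, p75-94, p75-216, p110-98, p110-121 and p110-374). Of 8 secretory genes, 8 were at least doubled in p110-143, p110-360 and p110-416, and 7 in p75-101, p75-129, p75-150 and p110-314. The count was 6 in p75-534, 5 in p110-225, 4 in p75-47, p75-216 and p110-374, 3 in p75-80 and p110-98, and 1 in p75-90, p75-94 and p110-121. Only measured genes were counted, so Btn1a1 in p110-225 (1.15, not measured) was left out. The tumors p110-416, p110-314 and p75-129 therefore had Fasn at 3.14, 1.92 and 1.88 and Csn2 at 10.48, 9.00 and 9.95 with none of the 7 adipocyte-defining genes doubled. The tumors p75-101, p75-150, p110-143, p110-225 and p110-360 had both sets of genes up, and in these the fat cell and the epithelial share of Fabp4, Lpl, Cd36 and Fasn cannot be told apart. In p110-374 and p75-90, 4 and 2 of the 7 adipocyte-defining genes were at least doubled, with Csn2 at 1.70 and -0.11 and Fasn at -0.69 and -0.32.

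**Figure D3:**
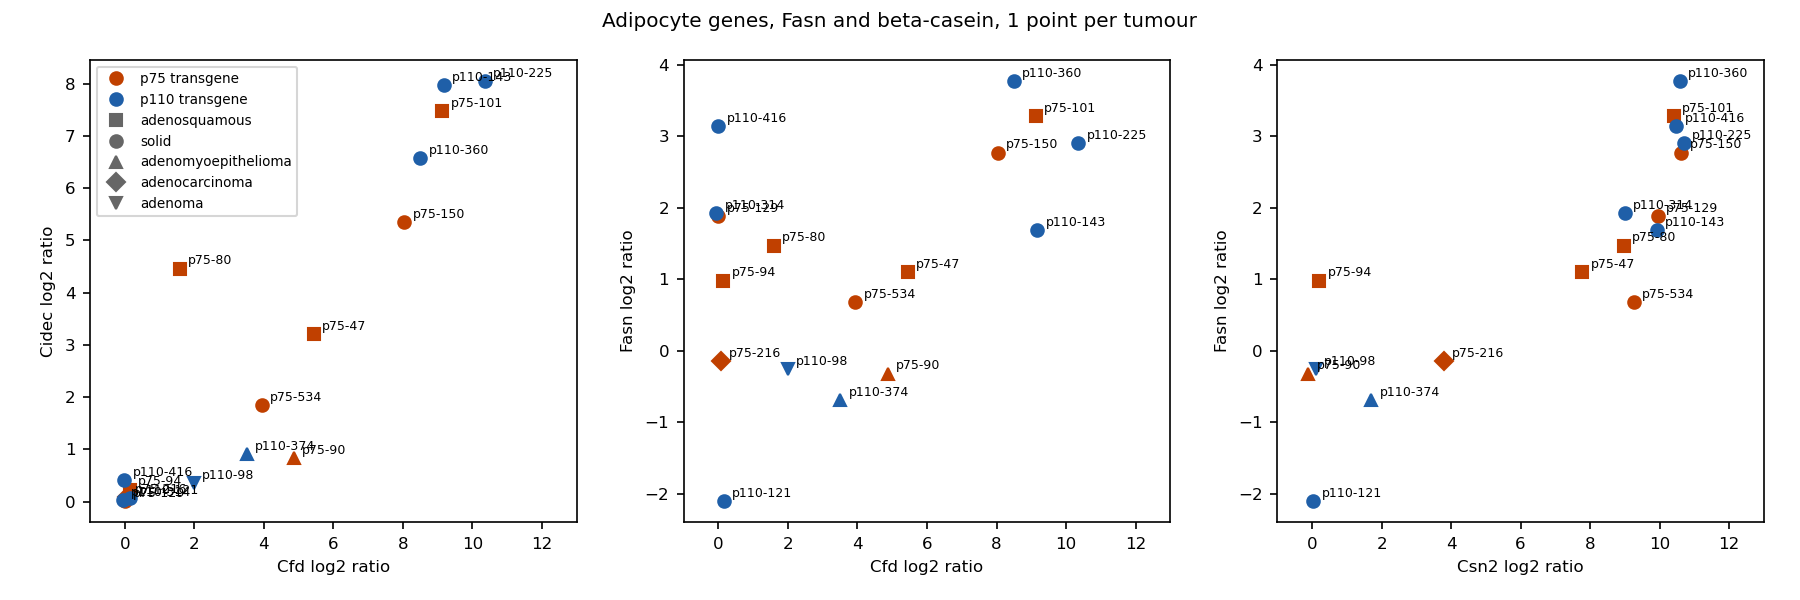
Log2 ratio of Cidec against Cfd (left), Fasn against Cfd (middle) and Fasn against Csn2 (right), with 1 point per tumor, color for the transgene and shape for the histology. The tumors p110-416, p110-314 and p75-129 lay at a Cfd ratio near 0 with Fasn at 3.14, 1.92 and 1.88, and at Csn2 ratios of 9.00 or more.

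Relations between pairs of genes were computed over the 17 tumors for 8 of 11 chosen pairs, leaving out 3 with a gene measured in under 6 tumors, with permutation p-values adjusted over the 8. Adipoq and Cfd had r = 0.68 (permutation p = 0.00278, adjusted 0.00556) and rho = 0.60 (p = 0.0116, adjusted 0.0185). Without p75-101 and p110-225, the tumors farthest from the median of Adipoq, r was 0.50 (permutation p = 0.0567), which no longer passed. It was 0.74 in the p75 tumors, where p75-101 and p75-150 alone stood out for Adipoq, and 0.65 in the p110 tumors (exact p = 0.0896).

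Adipoq and Fabp4 had r = 0.53 (permutation p = 0.0292, adjusted 0.0367) and rho = 0.50 (p = 0.0447, adjusted 0.0596), with 0.69 in p75 and 0.39 in p110 tumors (exact p = 0.351). Adipoq and Scd1 had r = 0.52 (permutation p = 0.0321, adjusted 0.0367) and rho = 0.39 (p = 0.126, adjusted 0.144), with 0.92 in p75 and 0.22 in p110 tumors (exact p = 0.609). Without p75-101 and p110-225 these fell to 0.32 and 0.21, so neither held without them. In the tumor color without the reference they were 0.31 and 0.12, and that of Adipoq and Cfd was 0.54. Adipoq and Fasn had r = 0.22 (permutation p = 0.394, adjusted 0.394) and rho = 0.12 (p = 0.637, adjusted 0.637), and r was -0.12 without the 2 tumors and 0.37 without p110-121. Within p75 tumors this r was 0.85 and within p110 tumors -0.25 (exact p = 0.55), a difference that was not itself tested. The p75 values of Adipoq with Fabp4, Fasn and Scd1 are given without a p, since Adipoq lay between -0.12 and 0.82 in 7 of the 9 tumors and only p75-101 and p75-150 stood above.

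Cd36 and Fabp4 had r = 0.65 (permutation p = 0.00578, adjusted 0.00925) and rho = 0.64 (p = 0.00634, adjusted 0.0127), 0.69 within p75 (exact p = 0.041) and 0.67 within p110 tumors (exact p = 0.0793). Without p75-94 and p75-216 it was 0.57 (permutation p = 0.0295, adjusted 0.0591). Fasn and Thrsp had r = 0.81 (permutation p = 5e-05, adjusted 0.00016) and rho = 0.85 (p = 3e-05, adjusted 0.00012), 0.87 within p75 (exact p = 0.00171) and 0.79 within p110 tumors (exact p = 0.0207). Without p110-121 and p110-360 it was 0.78, so the relation did not rest on those tumors. Sqle and Idi1 of the sterol route had r = 0.83 (permutation p = 6e-05, adjusted 0.00016) and rho = 0.81 (p = 0.00015, adjusted 0.0004), 0.76 without p110-225 and p110-121, 0.66 within p75 (exact p = 0.0551) and 0.93 within p110 tumors (exact p = 0.000446). For Fasn and Csn2 no pooled value is given, since Csn2 split the tumors into separate sets. Within the 11 tumors of high Csn2, r was 0.80 (permutation p = 0.00291) and rho 0.75 (p = 0.0101), and within the 6 others r was 0.11 (exact p = 0.776) and rho 0.43 (exact p = 0.419). This split was made after seeing the Csn2 values, and its p-values were not adjusted.

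Srebf1, which encodes the activator of lipogenic genes, was measured in all 17 tumors and at least doubled in 14. It was highest in p110-416 (2.90), p110-360 (2.70) and p75-101 (2.69) and lowest in p110-121 (-0.64). Srebf2, the activator of sterol genes, was 2.60 in p110-98, 1.72 in p110-121, 1.65 in p110-225 and 1.59 in p110-374, and lowest in p75-129 (-1.25). The highest Srebf2 ratios were therefore in tumors that included the 3 whose arrays were dimmest against the reference. Its brightest probe did not follow the 3 other Srebf2 probes (r = -0.26, -0.44 and 0.17), so its values are uncertain. Insig1, which holds SREBP precursors back in the endoplasmic reticulum, was measured in 2 tumors and lay between -1.10 and -0.01.

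Among the enzymes that join fatty acids to glycerol, Dgat2, which makes triglyceride, varied most. Its log2 ratio was highest in p110-225 (3.33), p75-90 (2.52), p75-101 (2.39) and p110-98 (2.27) and lowest in p110-416 (-4.49), p75-47 (-3.53) and p110-314 (-3.12). The tumors p110-416 and p110-314 were thus high for Fasn and among the lowest for Dgat2. Dgat1, the other enzyme of this step, was highest in p75-94 (2.02), and Lpin1, a phosphatidate phosphatase, in p110-360 (1.99) and p110-416 (1.90). Gpam and Agpat2, the acyltransferases of the first steps, were measured in 4 and 6 tumors and passed 1 only in p75-534 (1.19) and p110-121 (1.23).

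Sterol genes lay at or below the reference in most tumors. Hmgcs1 was 2.22 in p75-80, 1.44 in p75-94 and 0.42 in p75-47, and below the reference in the other 14, down to -2.47 in p110-121. The 3 tumors above the reference were adenosquamous carcinomas, and the fourth, p75-101, had -0.76. Idi1, an isomerase of the isoprenoid units, ran from -2.91 in p110-121 to 0.44 in p75-534. Sqle, the squalene epoxidase, was below the reference in all 17 tumors, from -2.91 in p110-225 to -0.63 in p75-80. Lss, the cyclase that follows it, was also below the reference in all 17 (-2.11 to -0.32), and Fdft1, which makes squalene, ran from -1.30 to 0.12, Dhcr7, the last reductase, from -1.54 to 0.56, and Mvd, a decarboxylase, from -1.91 to 0.13.

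Adenosquamous carcinomas (n = 4) were compared with solid carcinomas (n = 3) within the p75 line, a contrast of histology under the same transgene. None of the 37 genes passed limma's moderated test at an adjusted p of 0.05, where 0% of all genes passed. At an unadjusted p under 0.05 there were 2 of 37, against 2.86% of all genes. Of the 37 differences 18 were above 0 and 19 below, with a median of -0.01, and the median of all genes was -0.007. None of the 37 genes had groups without overlap, against 5.11% of all genes.

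The 2 genes were Hmgcs1 and Acly. Hmgcs1 was 0.83 ± 1.29 (SD) in adenosquamous and -0.88 ± 0.48 in solid carcinomas, a difference of 1.71 (SE 0.64, limma adjusted p = 1). Acly was 0.52 ± 0.38 and -0.04 ± 0.23, a difference of 0.55 (SE 0.22, limma adjusted p = 1). With the mean of all probes in place of the brightest, the differences were 0.58 for Hmgcs1 and 0.22 for Acly. The other probes of these 2 genes were measured in 0 tumors. For Cfd the means were 4.08 ± 4.04 and 3.99 ± 4.02, with a difference of 0.08 and a 95% interval from -7.25 to 7.41. For Fasn they were 1.71 ± 1.07 and 1.78 ± 1.04, with a difference of -0.07 (95% interval -2.71 to 2.58). The Cfd and Fasn intervals reached past 2 log2 units in either direction.

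Solid carcinomas of the p75 line (n = 3) and the p110 line (n = 6) were compared to read the transgene at equal histology. No gene of the 37 passed limma's test at an adjusted p of 0.05, as was so for 0% of all genes, and 3 of 37 had an unadjusted p under 0.05, against 6.68%. Cebpa was 0.86 ± 0.46 in p75 and 1.83 ± 0.51 in p110 tumors (difference -0.98, SE 0.32, limma adjusted p = 0.63), and it was the only 1 of the 37 whose groups did not overlap, against 3.43% of all genes. The gap between the groups was small, from 1.16 in p75-534 to 1.17 in p110-314. The mean log2 reference signal of Cebpa was 7.07 for the p75 and 6.64 for the p110 solid carcinomas. Its mean tumor signal was 7.92 and 8.48, so the groups differed in both colors. Mvd was -1.45 ± 0.42 and -0.54 ± 0.51 (difference -0.91, SE 0.34, limma adjusted p = 0.718), and Idi1 was -0.24 ± 0.95 and -1.75 ± 1.23 (difference 1.51, SE 0.68, limma adjusted p = 0.743). Cfd differed by -0.69 (95% interval -7.48 to 6.09) and Fasn by -0.11 (95% interval -2.56 to 2.33). Without p110-121 none of the 37 genes passed in any of the 4 comparisons, and the differences between the solid carcinomas were -1.09 for Cebpa, -0.89 for Mvd, 1.28 for Idi1, -1.60 for Cfd and -0.91 for Fasn. With the mean of all probes they were -0.51 for Cebpa, 0.98 for Idi1 and -0.63 for Fasn. The Mvd difference was -0.11 with median centring and -0.08 in the tumor color without the reference.

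**Figure D4:**
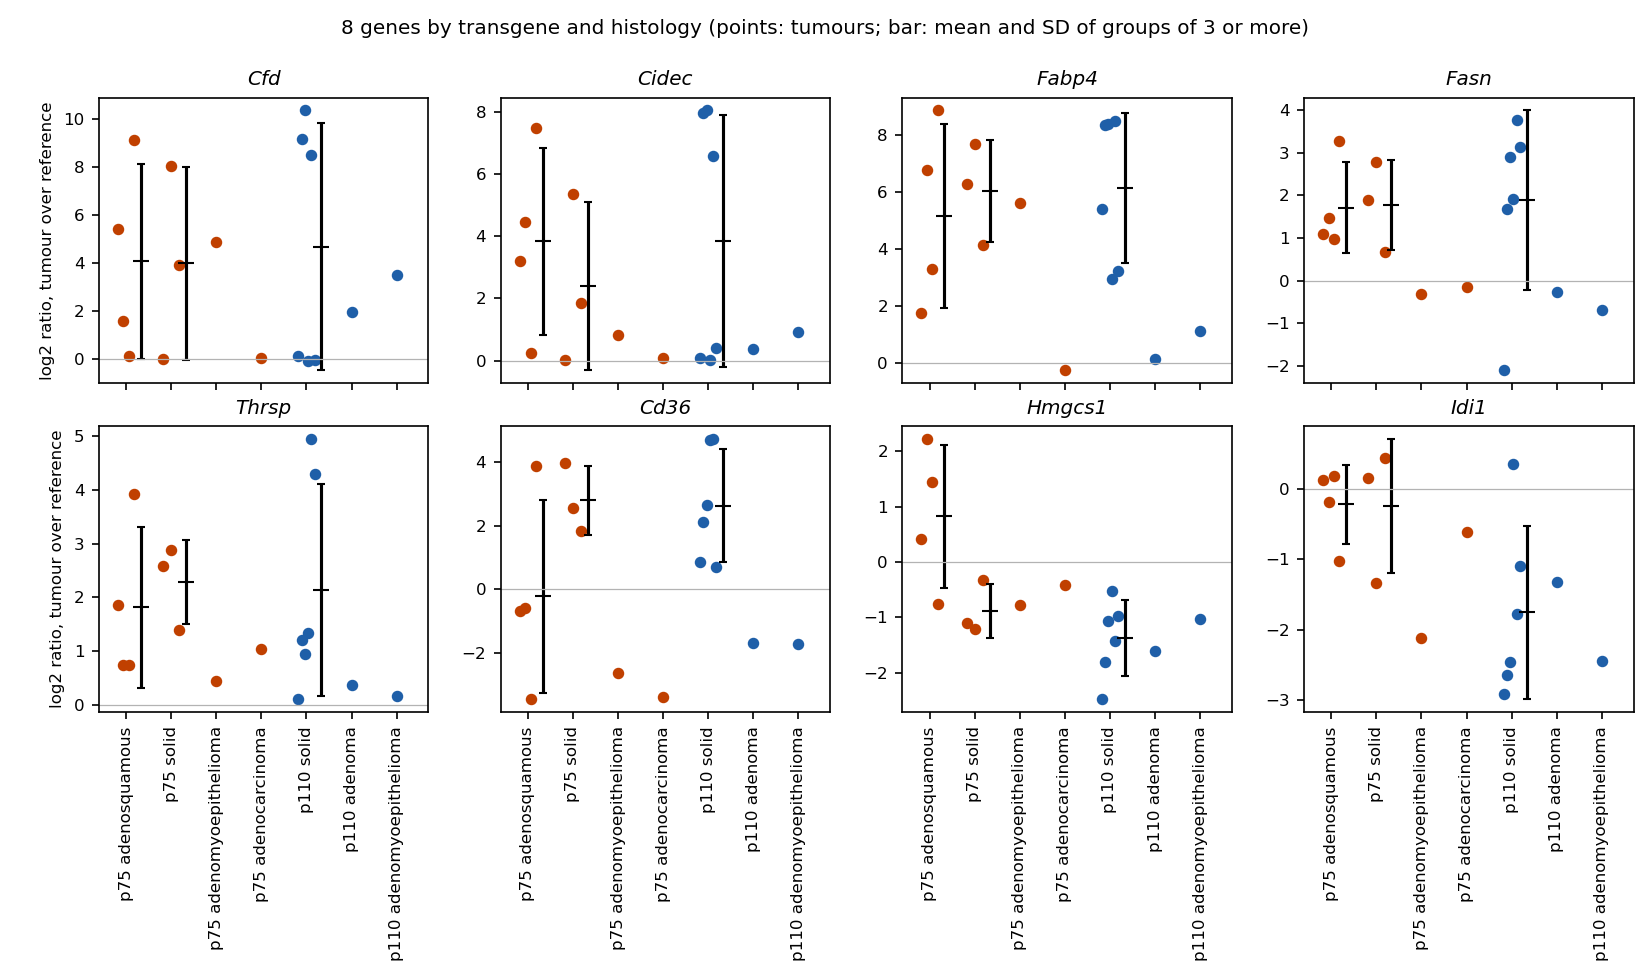
Log2 ratio of tumor over reference (vertical axes) of 8 genes by transgene and histology (horizontal axes), with points for tumors and bars for the mean and SD of groups of 3 or more tumors. Cfd and Cidec spanned background to their highest values within a group, and Hmgcs1 was above 0 in 3 of 4 adenosquamous carcinomas and in no other tumor.

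Over all tumors, 9 p75 against 8 p110 with unequal histology, no gene of the 37 passed limma's test, where 0.459% of all genes did, and 7 had an unadjusted p under 0.05, against 14% of all genes. These were Cebpa (-0.76, adjusted p = 0.108), Hmgcs1 (1.30, 0.186), Idi1 (1.30, 0.189), Mvd (-0.66, 0.195), Acacb (-1.07, 0.324), Srebf2 (-1.01, 0.332) and Elovl6 (0.81, 0.348), each given as the p75 minus p110 difference and limma's adjusted p. The log2 reference signal was not level between the lines for all of these genes. Its p75 and p110 means were 7.07 and 6.7 for Cebpa, 8.8 and 8.18 for Acacb, and 15.14 and 15.17 for Srebf2. The mean tumor signals were 7.99 and 8.38 for Cebpa and 8.79 and 9.25 for Acacb. Without the tumor p110-314, Idi1 (1.61, limma adjusted p = 0.0308) and Cebpa (-0.83, limma adjusted p = 0.041) passed, where 4.04% of all genes did, so that 1 tumor decided these calls. With median centring in place of loess, Hmgcs1 (2.62, limma adjusted p = 0.0327) and Elovl6 (2.02, limma adjusted p = 0.0491) passed, where 4.17% of all genes did, and the differences of Srebf2 and Mvd turned to 0.31 and 0.22. In the tumor color without the reference, Adipoq passed with -3.23 (limma adjusted p = 0.0423), lower in the p75 tumors, where 5.87% of all genes passed, and Mvd turned to 0.37. With the mean of all probes the differences were -0.40 for Cebpa, 0.43 for Hmgcs1, -0.50 for Acacb and -0.10 for Srebf2. The means of the Adipoq ratio were 1.36 ± 2.45 in the p75 and 2.13 ± 2.03 in the p110 tumors, and their ranges overlapped.

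The study ordered its tumors by the expression of Wnt ligands. The labels name no Wnt group, so the order was taken as a continuous measure, the sum over 19 Wnt ligand genes of each tumor's rank among the 17. It ran from 95 in p110-416, 107 in p75-101 and 109 in p110-314 to 225 in p75-80 and 243 in p75-94. Slopes were fitted per 100 units of this sum with the transgene as a covariate. No gene of the 37 passed limma's test, where 0.75% of all genes did, and 8 of 37 had an unadjusted p under 0.05, against 18.6%. Of the 37 slopes 13 were above 0 and 24 below, with a median of -0.23, while the median of all genes was 0.02 and 55.1% of all genes were above 0.

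The brightness of the arrays also went with the rank sum among the p110 tumors. The share of probes measured was 47.1%, 55.2% and 47.2% in p110-416, p110-314 and p110-360, at sums of 95 to 135, and between 21.5% and 36.4% in the other 5, at sums of 173 to 208. In the p75 tumors it was 38.8% at the lowest sum (p75-101) and 55% at the highest (p75-94). With this share as a further covariate, chosen after seeing the data, no gene of the 37 passed either, and the slopes were -3.22 for Lpl, -2.20 for Thrsp, -1.67 for Lpin1, -1.30 for Srebf1 and 0.97 for Srebf2.

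By role, the median slope was -3.58 for uptake and lipolysis, -0.83 for fatty acid synthesis, -0.16 for the adipocyte genes, -0.04 for glycerolipid synthesis, 0.15 for sterol synthesis and 0.61 for the regulators. Of the 9 genes of fatty acid synthesis 8 had slopes below 0. Among the 8 genes with an unadjusted p under 0.05, from any role, the steepest slope was that of Lpl (-4.02, SE 1.23, limma adjusted p = 0.119). Fabp3 was steeper but more scattered (-4.47, SE 2.12, limma adjusted p = 0.273). Thrsp (-2.55, adjusted p = 0.0947), Lpin1 (-1.73, 0.0837), Srebf1 (-1.45, 0.105) and Acly (-0.42, 0.235) also had slopes below 0. Srebf2 (1.56, 0.107), Insig1 (0.61, 0.126) and Fdft1 (0.53, 0.192) had slopes above 0, though Insig1 was measured in only 2 tumors and Fdft1, like Acly, in 5, so that these slopes mostly rest on spots at background. Another Fdft1 probe, measured in 14 tumors, followed the brightest only weakly (r = 0.26). With probes averaged per gene the slopes were 0.35 for Srebf2, 0.39 for Insig1, 0.81 for Fdft1 and -0.25 for Acly, and with median centring they were 0.21 for Srebf2 and 0.11 for Fdft1. The Fasn slope was -1.77 (95% interval -3.75 to 0.20). When the background correction was left out, 6 of the 37 passed, namely Lpl, Thrsp, Lpin1, Srebf1, Srebf2 and Insig1, where 6% of all genes passed. In the p110 tumors alone Adipoq passed, where 5.52% of all genes passed.

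The 8 secretory genes all had slopes below 0, with a median of -2.36, and Btn1a1, the butyrophilin of the milk fat globule, passed the test at -2.32 (SE 0.43, limma adjusted p = 0.0343). Their part in the slopes of the lipid genes was not tested. The 7 adipocyte-defining genes had a median slope of -0.03, with 3 above 0 and 4 below.

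**Figure D5:**
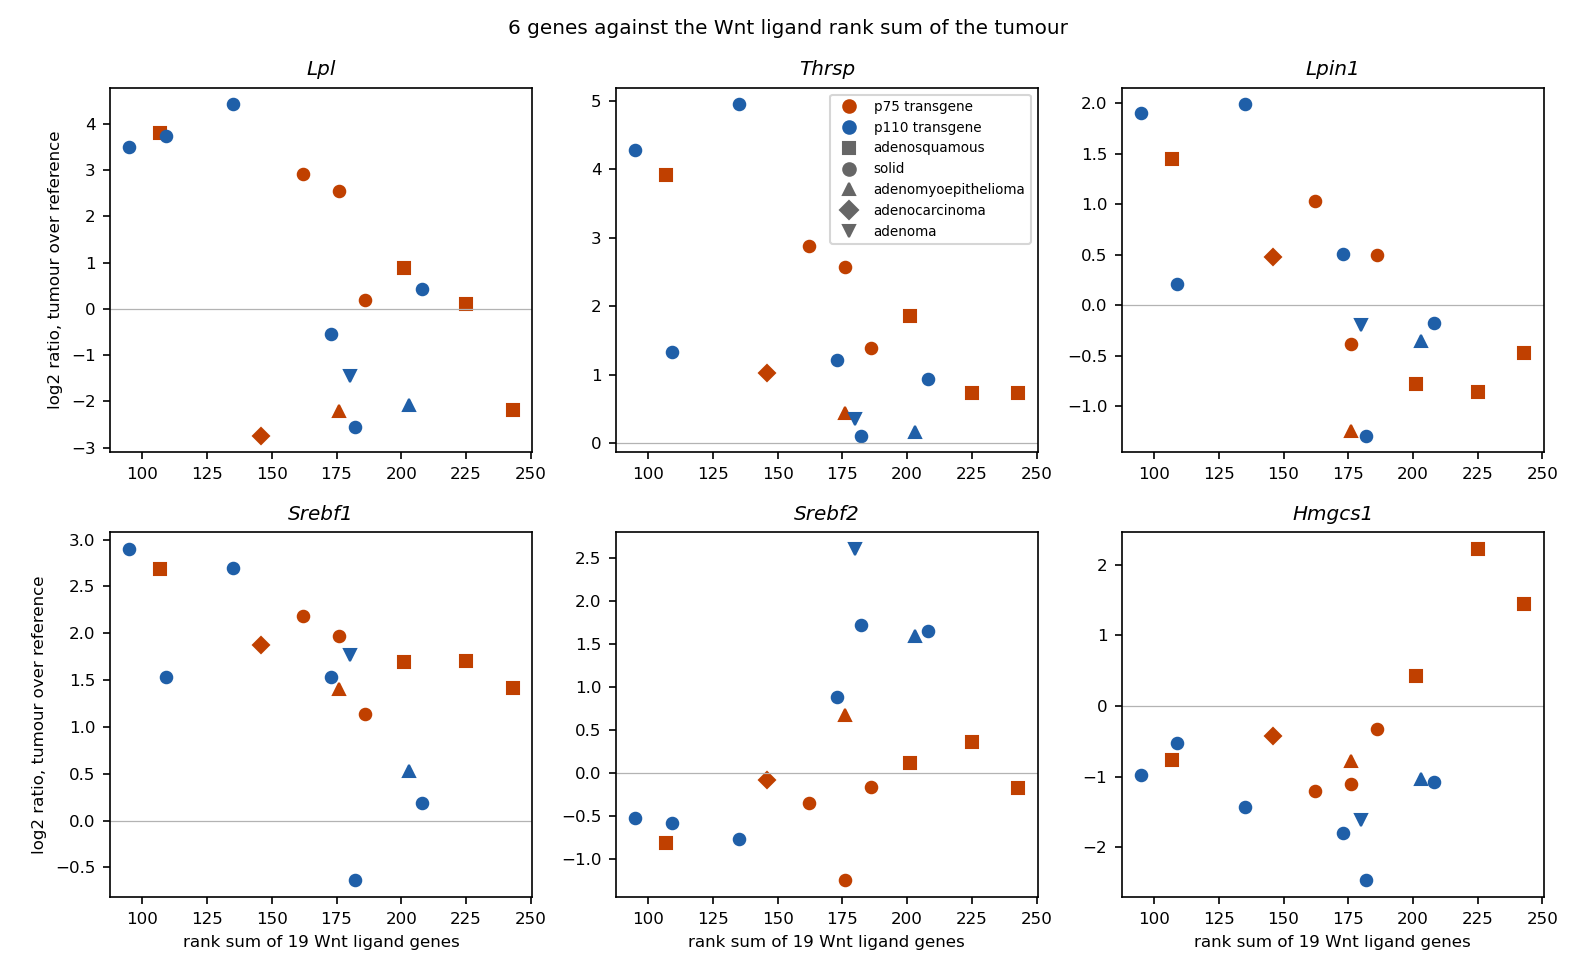
Log2 ratio of tumor over reference (vertical axes) of 6 genes against the Wnt ligand rank sum of the tumor (horizontal axes), with 1 point per tumor, color for the transgene and shape for the histology. Lpl and Thrsp were high in p110-416, p110-360 and p75-101, at rank sums of 95, 135 and 107, and Hmgcs1 was above 0 at sums of 201, 225 and 243.

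Whether the slope depended on the transgene was tested with an interaction term. Adipoq was the only 1 of the 37 genes to pass, with a slope of -4.22 in the p75 and 4.38 in the p110 tumors, a difference of -8.60 (limma adjusted p = 0.0291), where 1.99% of all genes passed. Without p75-101 the difference was -5.99 (limma adjusted p = 0.0938) and no longer passed. The reference signal of the Adipoq probe ran from 7.08 (p110-225) to 10.44 (p110-314) within the p110 tumors, and in the tumor color without the reference the difference was -7.07 (limma adjusted p = 0.0331). Array brightness also went with the rank sum in the p110 tumors, and its part in the slope difference was not tested. Cfd had slopes of -4.67 and 4.59, a difference of -9.26 that did not pass (limma adjusted p = 0.304). Hmgcs1 had 2.23 and -0.58 (difference 2.81, limma adjusted p = 0.11).

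Other genes of these routes gave no calls either. Of 16 further sterol genes, 12 further genes of fatty acid metabolism, 4 lipid droplet genes and 9 genes of fatty acid oxidation, none passed limma's test in any of the 4 comparisons. Over the Wnt rank sum, 11 of the 12 further fatty acid genes, 4 of the 4 droplet genes and 8 of the 9 oxidation genes had slopes below 0, with medians of -0.78, -1.40 and -0.23. The 16 further sterol genes had a median slope of 0.35, with 12 above 0.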

How the data were processed

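RNA of laser-captured tumor epithelium was amplified in 2 rounds and hybridized in dye swaps with an amplified universal mouse reference on 38 2-color Agilent arrays. The intensity values deposited by the authors are unnormalized Feature Extraction signals. The deposited log2 ratios, made with limma (version not given in the sources used here), equalled normexp background correction (offset 50), loess within arrays and the mean over a tumor's arrays to within 4.98e-08. Each step was recomputed with R 4.3.3 and limma 3.58.1. The main results used the deposited ratios of non-control spots, with outlier spots (0.545%) kept. Outlier spots were left out only in alternatives computed again from the Feature Extraction signals. Of the 41174 probes, 55.7% were named by RefSeq. Amplification and the common reference can distort levels of single probes, so single genes were not ranked against each other by signal. Array number limits the precision.

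The members and lists were chosen with earlier results of these data known. All 37 genes are named, and others only where they passed a test or define a cell type. Limma's lmFit and eBayes were run on 1 ratio per tumor and gene, p-values were adjusted by Benjamini-Hochberg over 28786 genes (threshold 0.05), and the fit was tested on simulated data. Relations used 100000 permutations, or exact ones under 10 tumors (scipy 1.17.1). Alternatives covered background correction, normalization, probe choice, dim probes, slide and scan day, single colors and leaving out tumors.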

Additional observations from a re-analysis of the deposited data

Results flagged for a closer look

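In 7 of 74 sets of values (a gene in the 4 p75 adenosquamous or the 6 p110 solid carcinomas), 1 tumor lay far from the others, where chance gives about 1 in 20. The ratio given is its gap to the nearest tumor over the whole range. Among the adenosquamous carcinomas p75-101 was highest for Adipoq (ratio 0.948, log2 ratio 6.76), Retn (ratio 0.864, 1.09) and Lpin1 (ratio 0.83, 1.45). Among the p110 solid carcinomas p110-121 was lowest for Cidea (ratio 0.748, -0.01) and Fasn (ratio 0.646, -2.10) and highest for Agpat2 (ratio 0.714, 1.23). Lep in p110-314 (ratio 0.718, -0.07) was not above background in any of those tumors. The Adipoq slope on the Wnt rank sum differed between the p75 and p110 tumors by -8.6, with the reference signal of that probe 2.63 higher on the p110 arrays.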

How the results depend on the processing

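The alternatives were the background correction, the normalization, the probe choice, a filter on dim probes, slide and scan day as blocks, single colors, and tumors left out. The count of passing genes among the 37 stayed at 0 in all 4 comparisons, apart from the following for p75 against p110 over all tumors and for the Wnt slope. For p75 against p110 it was 2 with median centring, 1 in the tumor color without the reference, and 0 to 2 when single tumors were left out, and Srebf2 and Mvd (differences of -1.01 and -0.66) turned to 0.31 and 0.22 with median centring and Mvd to 0.37 in the tumor color. For the slope it was 6 without background correction and 1 (Adipoq, 4.38) in the p110 tumors alone. The slopes that then passed were Lpl -4.15, Srebf1 -1.48, Srebf2 1.73, Insig1 0.67, Thrsp -2.61 and Lpin1 -1.64. Over all genes the calls ranged from 72 to 1690 for p75 against p110 and from 0 to 1726 for the slope. The causes were not tested.

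Differences near 0 changed sign. Within p75 Cfd was -0.22 in the Cy3 orientation alone and -0.38 against all 9 solid carcinomas, and Fasn was 0.31 with the mean of all probes and 0.01 with slide as a random block. Between solid carcinomas Cfd was 0.02 in Cy3 alone and 0.44 without the 3 dimmest tumors, and Fasn was 0.98 with median centring, 0.24 in the tumor color and 0.09 without the 3 dimmest. Leaving out single tumors gave Cfd from -1.91 to 2.11 and Fasn from -0.61 to 0.43 within p75, and Cfd from -2.72 to 1.30 and Fasn from -0.91 to 0.43 between solid carcinomas.

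Relations without the 2 farthest tumors were 0.50 for Adipoq and Cfd, 0.32 for Adipoq and Fabp4, -0.12 for Adipoq and Fasn, 0.21 for Adipoq and Scd1 and 0.57 for Cd36 and Fabp4. In p75 tumors they were 0.85 for Adipoq and Fasn and 0.66 for Sqle and Idi1. In p110 tumors they were 0.65 for Adipoq and Cfd, 0.39 for Adipoq and Fabp4, -0.25 for Adipoq and Fasn, 0.22 for Adipoq and Scd1, 0.67 for Cd36 and Fabp4 and 0.79 for Fasn and Thrsp. In the tumor color they were 0.31, -0.05 and 0.12 for Adipoq with Fabp4, Fasn and Scd1. The Adipoq slope difference was -5.99 without p75-101, a choice made after seeing the data, as were leaving out p110-121 and adding the share of probes above background to the slope fit, which left the counts of passing genes among the 37 at 0. No paired analysis was run, since each tumor was named for its own mouse.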

Other observations

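Of the 4 brown fat markers, Ucp1 was measured only in p75-80, with a log2 ratio of 3.43, where Prdm16 was 0.20 and Ppargc1a 0.13. Prdm16 was measured only in p110-143, with 2.06, where Ucp1 was -0.26 and Ppargc1a -0.43. Ppargc1a was measured in 10 tumors and was highest in p75-216 (1.42). The markers thus did not go together, and Cidea was measured in 15 tumors.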
